A study of Homo sapiens with 6 samples.

Results

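Glycolysis and its control by oxygen were followed through 41 genes, chosen by name: glucose and lactate transporters, the enzymes from hexokinase to lactate dehydrogenase, the kinases that steer flux, the alpha subunits of the hypoxia-inducible factors (HIF) and genes that these factors are known to induce. All 41 were found among the 24462 gene symbols of the count tables. After a filter on low counts, 40 of the 41 were tested, among 15386 genes. CA9, the hypoxia-induced carbonic anhydrase, had too few counts.

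The libraries came from the breast cancer line MDA-MB-231, which is classed as lacking hormone receptors and HER2. There were 2 libraries per group and 6 in all, prepared with QuantSeq, which sequences transcripts at their 3' end. The ELK3-labelled libraries are from cells with a stable knockdown of the transcription factor ELK3 (a retrovirus carrying an shRNA), collected 48 hours after transfection of 1 µg of a pLenti-cMyc-DDK plasmid carrying ELK3. The vector-labelled libraries are from the same knockdown cells 48 hours after 1 µg of the plasmid pLenti-cMyc-DDK without ELK3. The control libraries are from cells that received a control retrovirus, with no plasmid dose or time on the labels, so each contrast with controls mixes the labelled knockdown with the plasmid transfection. The labels mention no oxygen or glucose treatment, nor whether the replicates are separate cultures, so p-values measure the spread between these libraries, which may be technical.

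The targeted gene went against the labels. ELK3 stood at 20.4 and 22.6 CPM (counts scaled to library size, with TMM factors that correct for composition) in the ELK3-labelled libraries, at 758.9 and 697.2 CPM in the vector-labelled libraries and at 128.6 and 123.9 CPM in the controls. It was thus lowest where its re-expression is labelled and highest where the empty vector is labelled. The column headings of the deposited tables read KD for the ELK3-labelled libraries and KD+E for the vector-labelled ones. Directions below follow the sample titles, and an exchange of the plasmid labels would swap the results against controls and turn each sign between the plasmid groups.

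As background, glycolysis turns glucose into pyruvate, which lactate dehydrogenase converts to lactate or which mitochondria burn. HIF1A and EPAS1 encode oxygen-labile subunits that EGLN hydroxylases mark for destruction by the VHL ubiquitin ligase when oxygen is present. In low oxygen they pair with ARNT, bind the letters ACGTG or GCGTG and raise glucose uptake, glycolysis and lactate export. Breast cancer cells often run glycolysis at a high rate even in oxygen.

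Library totals lay between 4884483 and 9131214 counts, and 3 counts, the limit that a count of 0 allows, correspond to 0.319 to 0.645 CPM. The 10 markers of the labelled line, such as VIM, CD44, AXL and PLAU, summed to 750.1 and 705.7 CPM in the ELK3-labelled libraries, 787.2 and 760.8 CPM in the vector-labelled libraries and 5061 and 4820 CPM in the controls. Of these markers, 10 of 10 were called lower than in controls in both plasmid groups. Of all genes, 30.8% were lower in the ELK3-labelled and 35.3% in the vector-labelled libraries. A difference in the cells themselves and an effect of the labelled treatments cannot be told apart here. The 10 liver markers, with ALB highest, summed to 9405 and 9880 CPM, 12482 and 11600 CPM, and 11544 and 11889 CPM in the same order of groups. Called against controls were 0 higher and 10 lower in the ELK3-labelled libraries (31.8% and 30.8% of all genes). In the vector-labelled libraries 0 were higher and 0 lower (37% and 35.3% of all genes). The 10 luminal breast markers summed to 312.5 and 304.6 CPM, 378.3 and 380.0 CPM, and 239.7 and 233.7 CPM, with ELF5 near 0 in all groups and at 0 in both controls. Of the 9 tested, 4 were higher and 2 lower in the ELK3-labelled libraries than in controls (31.8% and 30.8% of all genes). In the vector-labelled libraries 5 were higher and 3 lower (37% and 35.3% of all genes). XBP1 averaged 136.4, 222.3 and 87.2 CPM in that order of groups, and EPCAM went the other way, at 1.17, 3.12 and 12.8 CPM. Transcripts of the receptor genes were counted. The estrogen receptor gene ESR1 averaged 16.5, 22.8 and 19.8 CPM, and the HER2 gene ERBB2 22.4, 25.3 and 38.9 CPM. The progesterone receptor gene PGR averaged 0.319, 7.47 and 0.317 CPM. The 10 fibroblast markers summed to 94.6 and 84.4 CPM, 107.1 and 90.2 CPM, and 57.3 and 59.1 CPM, with FAP and POSTN under 1 CPM on average in each group. Of the 8 tested, 4 were higher and 1 lower in the ELK3-labelled libraries than in controls (31.8% and 30.8% of all genes). In the vector-labelled libraries 4 were higher and 0 lower (37% and 35.3% of all genes). COL1A1 averaged 28.9, 37.1 and 13.6 CPM in that order of groups, and DCN went the other way, at 18.7, 21.3 and 25.0 CPM. The 10 lymphocyte markers summed to 179.1 and 198.1 CPM, 251.9 and 235.5 CPM, and 236.5 and 241.1 CPM, with CD3D under 1 CPM on average in each group. GNLY was highest, averaging 72.2, 86.6 and 91.8 CPM. Of the 9 tested, 0 were higher and 4 lower in the ELK3-labelled libraries than in controls (31.8% and 30.8% of all genes). In the vector-labelled libraries 1 was higher and 0 lower (37% and 35.3% of all genes). The part of these other transcripts in the results was not tested, and in bulk RNA fewer cells of a type and less RNA per cell cannot be told apart.

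Most of the members were lower in the plasmid groups than in the controls. In the ELK3-labelled libraries 8 of the 40 tested members were higher than in controls and 26 were lower at an adjusted p under 0.05, and 31.8% and 30.8% of all tested genes were called higher and lower. In the vector-labelled libraries 7 were higher and 26 lower, where 37% and 35.3% of all tested genes were called. The median log2 fold change of the members was -0.56 and -0.61, against 0.02 and 0.05 over all genes. Both contrasts use the same control libraries, so they are not independent. Between the ELK3-labelled and vector-labelled libraries, 18 members were higher and 12 lower, where 30% and 29.6% of all genes were called, with a median of 0.18 for the members and -0.02 over all genes.

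**Figure D1:**
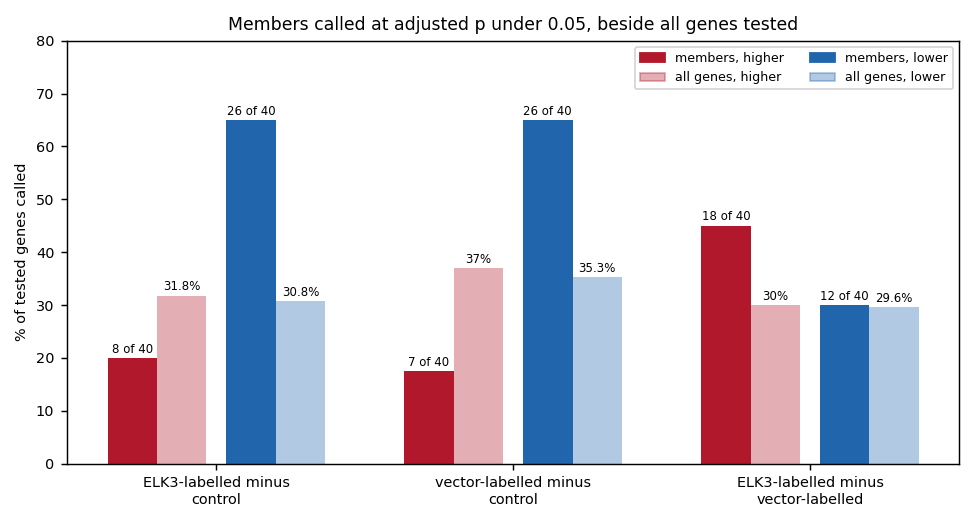
Percent of tested genes called higher (red) or lower (blue) at adjusted p under 0.05 in each contrast, for the 40 tested members (dark bars) and all 15386 tested genes (pale bars). Called lower against controls were 26 of 40 members in each plasmid group, where 30.8% and 35.3% of all genes were lower.

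Scaling by library totals in place of TMM shifted the median of all genes to 0.18 in each contrast with controls. Of all genes, 5911 were then higher and 3763 lower in the ELK3-labelled libraries, against 4891 and 4742 with TMM, and of the members 11 were higher and 24 lower. The members together took 0.787% and 0.783% of all counts in the ELK3-labelled libraries, 0.720% and 0.742% in the vector-labelled libraries, against 0.938% and 0.901% in the controls.

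**Figure D2:**
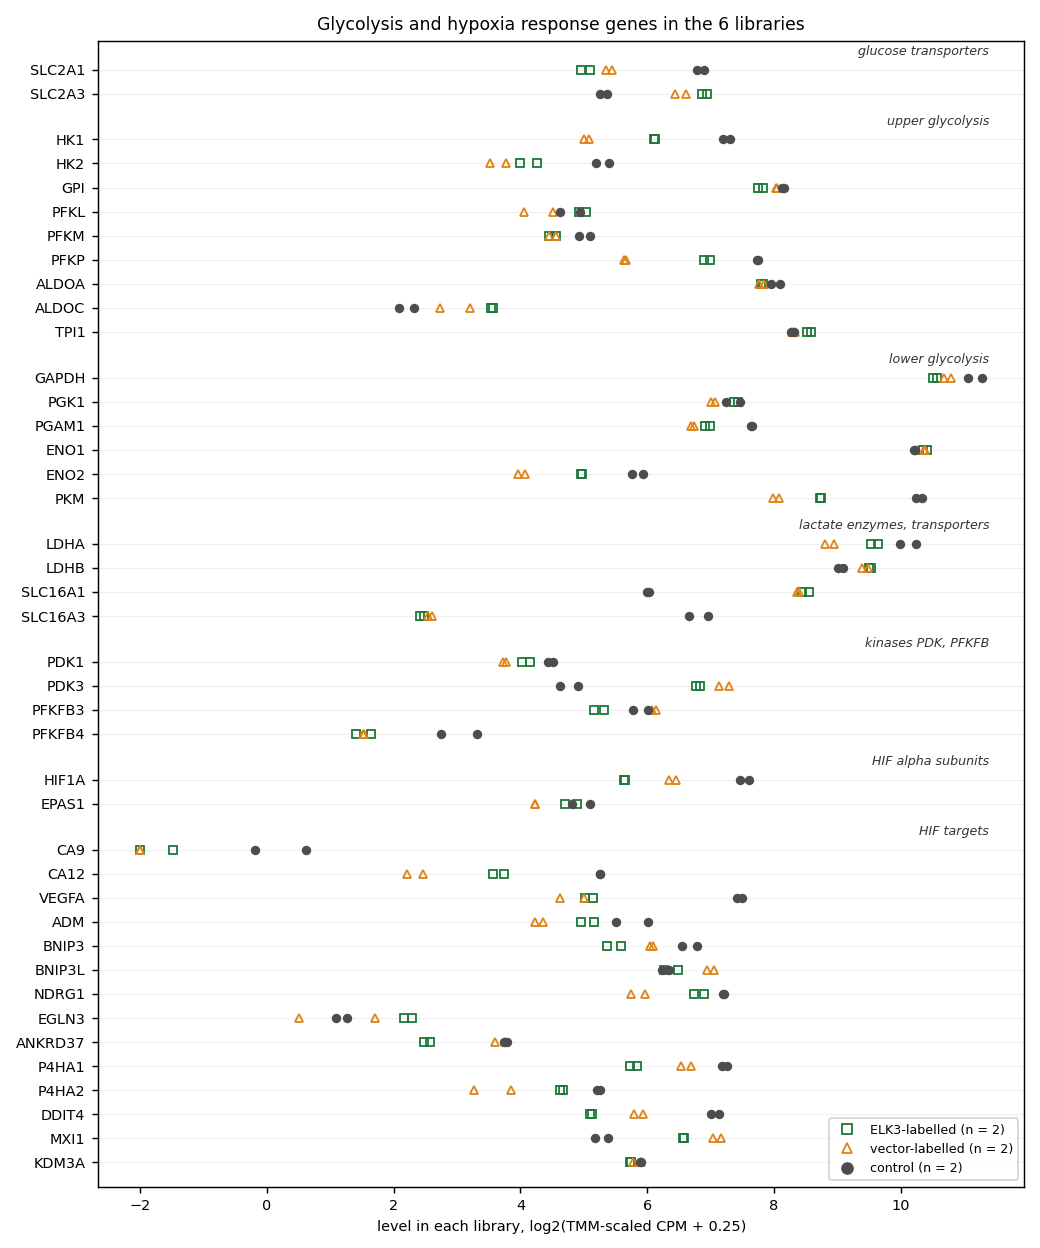
Level of each of the 41 members in each of the 6 libraries, as log2 of TMM-scaled CPM plus 0.25, with members grouped by role and 2 points per group. The control points lie to the right for SLC16A3, HK1, PKM and VEGFA and to the left for SLC16A1, SLC2A3, PDK3 and MXI1.

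The glucose transporters moved in opposite directions. SLC2A1, the widely expressed glucose transporter GLUT1 and a classic HIF target, had 34.2 and 30.8 CPM in the ELK3-labelled libraries, 40.5 and 43.2 CPM in the vector-labelled libraries and 119.0 and 110.7 CPM in the controls. All plasmid libraries lay below both controls, with log2 fold changes of -1.83 ± 0.11 (SE; adjusted p = 2.26e-16) and -1.46 ± 0.11 (adjusted p = 5.6e-14). SLC2A3, the high-affinity neuronal-type transporter GLUT3, had 116.1 and 123.1 CPM, 86.7 and 97.6 CPM, and 41.0 and 37.8 CPM in the same groups. It was higher in both plasmid groups, by 1.60 ± 0.11 (adjusted p = 7.71e-15) and 1.22 ± 0.11 (adjusted p = 1.05e-11). Of the counts of this pair, SLC2A3 held 77.2% and 79.97% in the ELK3-labelled libraries, 68.1% and 69.3% in the vector-labelled libraries, against 25.6% and 25.5% in the controls. Between the plasmid groups SLC2A3 was higher by 0.38 ± 0.09 (adjusted p = 0.000775) where ELK3 is labelled, and SLC2A1 lower by a log2 fold change of -0.37 ± 0.12 (adjusted p = 0.00728). The SLC2A1 call was lost on leaving out replicate 2 of the vector-labelled group (adjusted p = 0.0658) or replicate 2 of the ELK3-labelled group (adjusted p = 0.119). SLC2A14, a near-identical copy of SLC2A3 named here after its values were seen, had 3.66 and 6.38 CPM, 15.1 and 14.4 CPM, and 1.67 and 1.94 CPM, and reads that fit both copies may have been counted for either.

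Hexokinases trap glucose as glucose 6-phosphate, and both were lower in the plasmid groups. HK1, the form of most tissues, had 69.0 and 69.9 CPM in the ELK3-labelled libraries, 33.6 and 31.8 CPM in the vector-labelled libraries and 158.5 and 146.7 CPM in the controls. The groups did not overlap: the log2 fold change was -1.14 ± 0.09 (adjusted p = 1.73e-12) and -2.22 ± 0.11 (adjusted p = 5.42e-19) against controls, and 1.08 ± 0.11 between the plasmid groups (adjusted p = 2.55e-10). HK2, the inducible form of many tumours, had 15.7 and 19.0 CPM, 13.4 and 11.2 CPM, and 36.4 and 41.9 CPM. Its log2 fold change was -1.15 ± 0.16 and -1.66 ± 0.17 against controls and 0.50 ± 0.18 between the plasmid groups (adjusted p = 0.0161). That last call was lost on leaving out replicate 2 of the vector-labelled group (adjusted p = 0.11) or of the ELK3-labelled group (adjusted p = 0.2), and with DESeq2 (adjusted p = 0.0787).

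Phosphofructokinase, the committed step of glycolysis, changed most in its platelet form. PFKP had 118.6 and 126.4 CPM in the ELK3-labelled libraries, 50.5 and 49.2 CPM in the vector-labelled libraries and 215.6 and 212.2 CPM in the controls. It fell by 0.80 and by 2.10 on the log2 scale against controls (adjusted p = 8e-10 and 1.74e-19) and was higher by 1.30 ± 0.10 in ELK3-labelled than in vector-labelled libraries (adjusted p = 2.37e-13). The liver form PFKL had 32.4 and 30.0 CPM, 16.3 and 22.6 CPM, and 30.5 and 24.5 CPM. The PFKL call in the vector-labelled libraries against controls, at -0.52 ± 0.17 (adjusted p = 0.00705), ended without control replicate 1 (adjusted p = 0.0968) or vector-labelled replicate 1 (adjusted p = 0.205). The muscle form PFKM had 23.4 and 21.6 CPM, 21.7 and 23.4 CPM, and 33.9 and 30.1 CPM, lower in both plasmid groups by -0.52 ± 0.15 and -0.51 ± 0.15. PFKP held 68.0% and 71.0% of the counts of this family in the ELK3-labelled libraries, 57.0% and 51.7% in the vector-labelled libraries, against 77.0% and 79.5% in the controls.

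GPI, the aldolases and TPI1 differed in direction. GPI, which isomerises glucose 6-phosphate, had 213.9 and 227.7 CPM in the ELK3-labelled libraries, 261.6 and 263.9 CPM in the vector-labelled libraries and 280.9 and 286.4 CPM in the controls. It was lower in ELK3-labelled libraries than in controls (-0.36 ± 0.08, adjusted p = 0.000324), and its log2 fold change of -0.11 ± 0.08 in vector-labelled libraries was not called. ALDOA, the main aldolase, had mean levels of 225.3 ± 2.92, 223.3 ± 9.61 and 260.4 ± 16.8 CPM (SD, n = 2). Its calls against controls, -0.21 ± 0.08 (adjusted p = 0.031) and -0.22 ± 0.09 (adjusted p = 0.0198), ended with library totals (adjusted p = 0.633 and 0.348) and without control replicate 1 (adjusted p = 0.233 and 0.134). They ended too without either ELK3-labelled replicate (adjusted p = 0.0851 and 0.134) in the first contrast, and without vector-labelled replicate 1 (adjusted p = 0.146) in the second. The brain aldolase ALDOC was low, at 11.3 and 11.6 CPM, 8.96 and 6.40 CPM, and 3.97 and 4.73 CPM, and higher in ELK3-labelled libraries than in controls by 1.39 ± 0.27 (adjusted p = 3.51e-05). Its call in the vector-labelled libraries (0.84 ± 0.30, adjusted p = 0.0113) ended without control replicate 1 (adjusted p = 0.0792), on leaving out replicate 1 of the vector-labelled group (adjusted p = 0.201) and with DESeq2 (adjusted p = 0.0635). TPI1, triose phosphate isomerase, had 384.5 and 368.2 CPM, 312.3 and 323.4 CPM, and 308.9 and 319.8 CPM. It was higher in ELK3-labelled libraries than in controls (0.26 ± 0.08, adjusted p = 0.00608), a call that ended without ELK3-labelled replicate 1 (adjusted p = 0.0619).

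In the lower part of the pathway, PKM had the steepest fall. PKM encodes the pyruvate kinase of most tissues and had 422.0 and 426.9 CPM in the ELK3-labelled libraries, 253.1 and 270.9 CPM in the vector-labelled libraries and 1293 and 1217 CPM in the controls. The groups stood apart, with log2 fold changes of -1.56 ± 0.08 (adjusted p = 5.35e-18) and -2.26 ± 0.08 (adjusted p = 4.65e-22) against controls and 0.70 ± 0.08 between the plasmid groups (adjusted p = 6.45e-09). ENO2, the neuronal enolase, had 30.8 and 31.0 CPM, 15.3 and 16.6 CPM, and 60.6 and 54.0 CPM, a fall of 0.89 and 1.85 on the log2 scale. ENO1, the main enolase, had 1363 and 1314 CPM, 1319 and 1332 CPM, and 1191 and 1194 CPM and was not called (adjusted p = 0.0582 and 0.0741 against controls). Library totals, limma-voom and the filter of 10 CPM called ENO1 higher in both plasmid groups (adjusted p between 0.000258 and 0.0357). ENO2 held 2.21% and 2.31% of the enolase counts in the ELK3-labelled libraries, 1.14% and 1.23% in the vector-labelled libraries, against 4.84% and 4.32% in the controls.

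GAPDH, often used as a reference transcript, was not level across the groups. It had 1458 and 1522 CPM in the ELK3-labelled libraries, 1654 and 1768 CPM in the vector-labelled libraries and 2503 and 2146 CPM in the controls, with log2 fold changes of -0.64 ± 0.08 (adjusted p = 2.96e-08) and -0.44 ± 0.08 (adjusted p = 1.37e-05) against controls. PGAM1, phosphoglycerate mutase, had 127.5 and 120.4 CPM, 103.1 and 106.7 CPM, and 199.1 and 202.1 CPM and fell by 0.70 and 0.94 on the log2 scale. PGAM4, a retrogene of PGAM1 named here after its values were seen, had 32.3 and 37.3 CPM, 31.4 and 32.6 CPM, and 52.7 and 53.3 CPM, and reads of such near-identical copies may be split. PGK1, phosphoglycerate kinase, had 164.6 and 173.3 CPM, 134.1 and 128.3 CPM, and 151.4 and 176.1 CPM. PGK1 was lower in the vector-labelled libraries than in controls (-0.32 ± 0.09, adjusted p = 0.00265), a call that ended without control replicate 2 (adjusted p = 0.0624) and with library totals (adjusted p = 0.0694). Of the 15 enzymes from hexokinase to pyruvate kinase, 2 were higher and 10 lower in the ELK3-labelled libraries than in controls, where 31.8% and 30.8% of all genes were called. In the vector-labelled libraries 1 was higher and 11 lower (37% and 35.3% of all genes). Between the plasmid groups, with 30% and 29.6% of all genes called, 10 were higher and 2 lower, GPI and GAPDH being the lower ones. Both ended without ELK3-labelled replicate 1 (adjusted p = 0.12 and 0.219), vector-labelled replicate 1 (adjusted p = 0.0524 and 0.0562) and vector-labelled replicate 2 (adjusted p = 0.068 and 0.288), and GAPDH ended without ELK3-labelled replicate 2 (adjusted p = 0.0845). The higher calls of TPI1 and PGAM1 were lost on leaving out replicate 1 of the vector-labelled group (adjusted p = 0.0787 and 0.118) or of the ELK3-labelled group (adjusted p = 0.0739 and 0.119). That of ALDOC (0.55 ± 0.23, adjusted p = 0.0378) was lost on leaving out replicate 2 of the vector-labelled group (adjusted p = 0.262), or replicate 1 (adjusted p = 0.0724) or 2 of the ELK3-labelled group (adjusted p = 0.125).

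**Figure D3:**
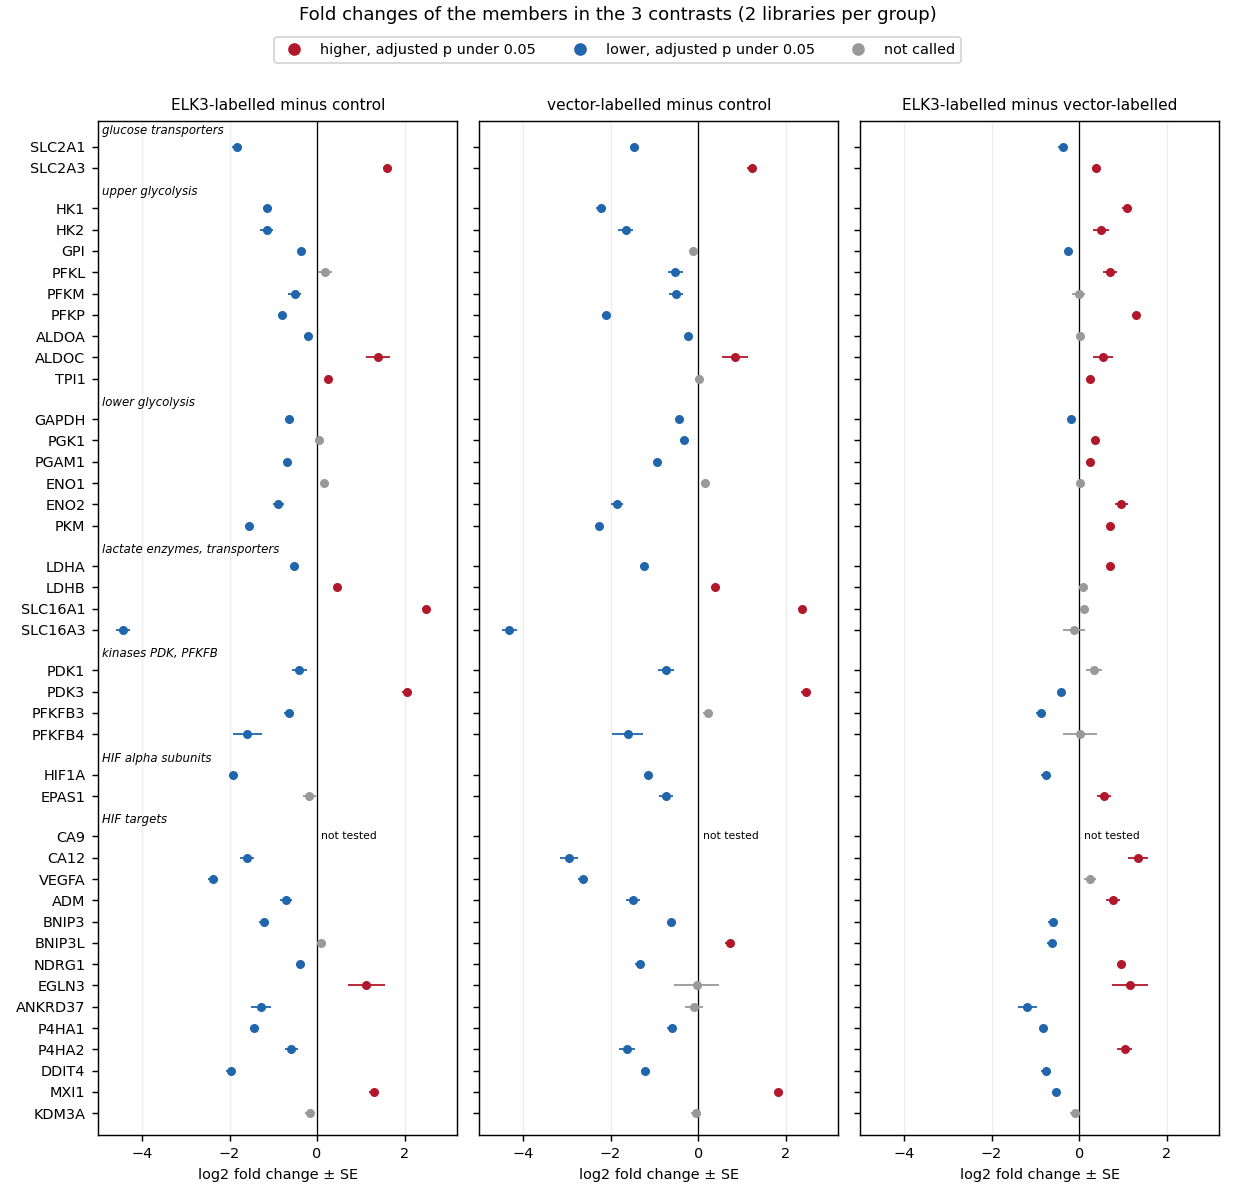
Log2 fold change of each member with its SE from the fit, in the 3 contrasts, in red where higher and in blue where lower at adjusted p under 0.05, in grey where not called. SLC16A3 has the lowest value against controls (-4.43 and -4.31) and SLC16A1 and PDK3 the highest values (2.49 and 2.46).

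The lactate transporters moved in opposite directions against controls, and SLC16A3 had the largest change of any tested member in both contrasts with controls. SLC16A3, the lactate exporter MCT4 of glycolytic cells, had 5.09 and 5.32 CPM in the ELK3-labelled libraries, 5.58 and 5.80 CPM in the vector-labelled libraries and 124.8 and 101.3 CPM in the controls. It was lower by -4.43 ± 0.16 (adjusted p = 1.82e-22) and -4.31 ± 0.16 (adjusted p = 9.83e-22), 21.6-fold and 19.9-fold. SLC16A1, the transporter MCT1 that carries lactate in or out, had 348.2 and 374.1 CPM, 330.7 and 335.8 CPM, and 65.0 and 63.9 CPM. It was higher in both plasmid groups by 2.49 ± 0.09 (adjusted p = 9.38e-22) and 2.37 ± 0.09 (adjusted p = 3.53e-21). SLC16A1 held 98.6% of the counts of this pair in both ELK3-labelled libraries, 98.3% in both vector-labelled libraries, against 34.3% and 38.7% in the controls. Neither transporter was called between the plasmid groups (0.12 ± 0.08 for SLC16A1 and -0.12 ± 0.25 for SLC16A3). SLC16A7, another lactate and pyruvate transporter that was no member, was lower by -2.23 ± 0.17 and -1.87 ± 0.17.

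LDHA, the lactate dehydrogenase subunit that favours lactate production, had 739.1 and 802.2 CPM in the ELK3-labelled libraries, 496.2 and 446.2 CPM in the vector-labelled libraries and 1014 and 1208 CPM in the controls. The groups did not overlap, with log2 fold changes of -0.53 ± 0.09 (adjusted p = 2.61e-06) and -1.24 ± 0.09 (adjusted p = 2.09e-14) against controls and 0.71 ± 0.09 between the plasmid groups (adjusted p = 1.76e-08). LDHB, the subunit of oxidative tissues, had 720.8 and 743.1 CPM, 667.6 and 716.0 CPM, and 516.7 and 545.3 CPM. It was higher than in controls by 0.46 ± 0.08 (adjusted p = 6.02e-06) and 0.38 ± 0.08 (adjusted p = 7.69e-05). LDHB held 49.4% and 48.1% of the counts of the pair in the ELK3-labelled libraries, 57.4% and 61.6% in the vector-labelled libraries, against 33.8% and 31.1% in the controls.

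The kinases PDK1 and PDK3 switch off pyruvate dehydrogenase and so keep pyruvate from the mitochondria, and they too parted. PDK3 had 109.6 and 113.9 CPM in the ELK3-labelled libraries, 140.6 and 156.9 CPM in the vector-labelled libraries and 24.5 and 29.7 CPM in the controls. It was higher by 2.05 ± 0.12 (adjusted p = 8.59e-17) and 2.46 ± 0.12 (adjusted p = 3.64e-19), and lower in ELK3-labelled than in vector-labelled libraries (-0.41 ± 0.09, adjusted p = 0.000302). PDK1, a known HIF target as PDK3 also is, had 17.5 and 15.9 CPM, 13.4 and 13.0 CPM, and 22.6 and 21.5 CPM. It was lower in vector-labelled libraries (-0.74 ± 0.18, adjusted p = 0.000485). Its call in ELK3-labelled libraries (-0.41 ± 0.17, adjusted p = 0.0351) ended without each control replicate (adjusted p = 0.134 and 0.0613), without each ELK3-labelled replicate (adjusted p = 0.0511 and 0.191), with library totals (adjusted p = 0.209), with DESeq2 (adjusted p = 0.153) and with no filter (adjusted p = 0.0548). PDK3 held 86.2% and 87.7% of the counts of the pair in the ELK3-labelled libraries, 91.3% and 92.3% in the vector-labelled libraries, against 52.0% and 58.0% in the controls.

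**Figure D4:**
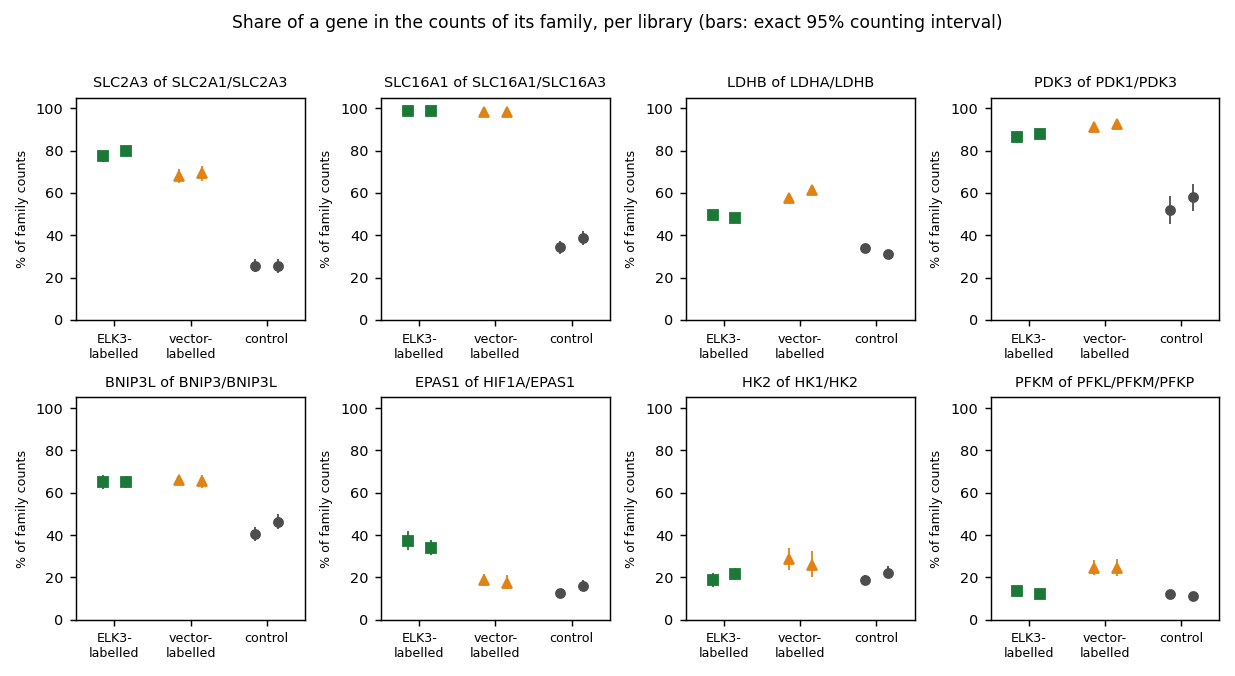
Percent of the counts of a gene family held by the named gene in each library, with exact 95% binomial intervals that cover counting error only. SLC2A3 stands at 68.1% to 79.97% in plasmid libraries and 25.5% to 25.6% in controls, and SLC16A1 at 98.3% to 98.6% and 34.3% to 38.7%.

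The promoters of the LDH and PDK pairs are shown because the genes of each pair moved in opposite directions, and that of SLC16A3 because it was lowered most. They are RefSeq windows on GRCh38.p14 from 250 bases before to 50 after the start of the gene, read along the gene, with the HIF core letters ACGTG or GCGTG, on either strand, in capitals. The windows are chr17:82228185-82228484 (plus strand) for SLC16A3, chr11:18394313-18394612 (plus strand) for LDHA, chr12:21657793-21658092 (minus strand) for LDHB, chr2:172555123-172555422 (plus strand) for PDK1 and chrX:24465036-24465335 (plus strand) for PDK3.
SLC16A3: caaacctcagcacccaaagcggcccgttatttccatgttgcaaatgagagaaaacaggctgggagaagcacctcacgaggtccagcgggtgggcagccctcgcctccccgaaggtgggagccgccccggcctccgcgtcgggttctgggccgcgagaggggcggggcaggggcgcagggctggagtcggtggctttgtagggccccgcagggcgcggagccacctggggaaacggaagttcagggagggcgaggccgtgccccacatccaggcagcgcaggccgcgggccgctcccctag
LDHA: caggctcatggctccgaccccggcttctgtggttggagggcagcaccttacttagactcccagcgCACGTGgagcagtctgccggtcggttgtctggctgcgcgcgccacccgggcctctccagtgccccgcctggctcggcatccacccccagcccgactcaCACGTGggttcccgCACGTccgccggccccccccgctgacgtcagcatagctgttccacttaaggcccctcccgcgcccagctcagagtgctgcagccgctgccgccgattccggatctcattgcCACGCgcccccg
LDHB: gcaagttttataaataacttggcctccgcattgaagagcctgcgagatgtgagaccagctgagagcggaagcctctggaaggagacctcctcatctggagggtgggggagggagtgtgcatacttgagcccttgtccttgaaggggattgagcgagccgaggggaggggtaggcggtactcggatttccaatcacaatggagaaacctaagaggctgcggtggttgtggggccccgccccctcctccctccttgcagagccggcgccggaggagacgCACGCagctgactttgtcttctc
PDK1: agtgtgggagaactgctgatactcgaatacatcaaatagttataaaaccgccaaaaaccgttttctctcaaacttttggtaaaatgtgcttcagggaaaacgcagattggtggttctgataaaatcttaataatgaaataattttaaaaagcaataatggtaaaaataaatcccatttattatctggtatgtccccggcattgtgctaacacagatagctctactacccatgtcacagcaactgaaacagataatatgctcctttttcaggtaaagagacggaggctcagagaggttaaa
PDK3: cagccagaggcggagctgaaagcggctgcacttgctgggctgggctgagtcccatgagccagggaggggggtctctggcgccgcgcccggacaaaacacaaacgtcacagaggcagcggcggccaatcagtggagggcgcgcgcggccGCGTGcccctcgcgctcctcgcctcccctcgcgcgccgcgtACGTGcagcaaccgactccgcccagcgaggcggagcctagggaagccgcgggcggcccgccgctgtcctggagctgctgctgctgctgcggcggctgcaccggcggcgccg

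The LDHA window held 6 matches, of which 2 pairs are the same CACGTG read on both strands, LDHB held 1, PDK3 held 2, and PDK1 and SLC16A3 held 0 in these windows. Only 1 window per gene was searched, so the counts do not cover any other start of a gene. ALDOA and ALDOC were also called in opposite directions against controls, ALDOC being the higher. Their windows, not shown, held 1 and 5 matches, counted on both strands as above. Of 36 members with a window, 26 (72.2%) held ACGTG or GCGTG, against 48.4% of 27305 windows of the same length. Of the 24 members with a window that were lower in the vector-labelled libraries, 17 held the letters, and of the 4 that were higher 3 did. In the ELK3-labelled libraries against controls it was 17 of the 24 lower and 3 of the 6 higher, and between the plasmid groups 10 of the 16 higher and 10 of the 11 lower. The ETS core CCGGAA, to which ELK3 and its relatives bind, was in 7 of the 36 windows (19.4%), against 17.6% of all. Members with no entry were SLC2A3, SLC16A1, VEGFA, BNIP3L and NDRG1.

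PFKFB3 and PFKFB4 make fructose 2,6-bisphosphate, the strongest activator of phosphofructokinase. PFKFB3 had 35.6 and 39.7 CPM in the ELK3-labelled libraries, 67.4 and 70.6 CPM in the vector-labelled libraries and 54.6 and 64.3 CPM in the controls. It was lower in ELK3-labelled libraries than in controls (-0.65 ± 0.12, adjusted p = 1.15e-05) and than in vector-labelled libraries (-0.87 ± 0.11, adjusted p = 4.8e-08), while its value of 0.21 ± 0.11 in vector-labelled libraries was not called (adjusted p = 0.0865). That contrast passed without control replicate 2 (adjusted p = 0.0431), with library totals (adjusted p = 0.00645) and with the filter of 10 CPM (adjusted p = 0.0131). PFKFB4 was low, at 2.39 and 2.87 CPM, 2.64 and 2.60 CPM, and 6.48 and 9.68 CPM, and lower in both plasmid groups by -1.59 ± 0.33 and -1.61 ± 0.35.

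Both HIF alpha subunit genes were lower in the vector-labelled libraries. HIF1A had 49.3 and 49.8 CPM in the ELK3-labelled libraries, 81.2 and 87.8 CPM in the vector-labelled libraries and 195.7 and 177.2 CPM in the controls. It was lower by -1.91 ± 0.10 (adjusted p = 3.61e-18) and -1.14 ± 0.09 (adjusted p = 7.84e-13), and ELK3-labelled libraries lay below vector-labelled ones by -0.77 ± 0.10 (adjusted p = 6.4e-08). EPAS1, which encodes HIF-2 alpha, had 29.4 and 25.7 CPM, 18.5 and 18.6 CPM, and 28.0 and 34.0 CPM. It was lower in vector-labelled libraries (-0.74 ± 0.16, adjusted p = 0.000125), and the value of -0.18 ± 0.15 in ELK3-labelled libraries was not called. EPAS1 held 37.4% and 34.1% of the counts of the pair in the ELK3-labelled libraries, 18.6% and 17.5% in the vector-labelled libraries, against 12.5% and 16.1% in the controls. These are transcripts: the HIF alpha proteins are controlled largely by their destruction, which was not measured.

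Of 10 tested genes of the oxygen-sensing machinery beside the members, 2 were higher and 3 lower in the ELK3-labelled libraries than in controls, where 31.8% and 30.8% of all genes were called. In the vector-labelled libraries 1 was higher and 6 lower (37% and 35.3% of all genes). Between the plasmid groups 7 were higher and 2 lower (30% and 29.6% of all genes). HIF1AN, the asparagine hydroxylase that blocks HIF activity, had 47.4 and 53.5 CPM in the ELK3-labelled libraries, 21.2 and 21.4 CPM in the vector-labelled libraries and 53.7 and 53.8 CPM in the controls, a log2 fold change of 1.25 ± 0.13 between the plasmid groups (adjusted p = 3.41e-10). VHL had 120.5 and 122.8 CPM, 69.3 and 70.2 CPM, and 151.4 and 126.2 CPM, higher by 0.80 ± 0.10 in ELK3-labelled than in vector-labelled libraries (adjusted p = 1.57e-08). RBX1, a subunit of the same ligase, went the other way (-0.40 ± 0.09, adjusted p = 0.000172), as did the hydroxylase gene EGLN1 (-0.78 ± 0.14, adjusted p = 1.01e-05).

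The members listed as HIF targets leave out those grouped above by role, such as SLC2A1, PDK1 and PDK3. Among the 13 tested of this list, 2 were higher and 9 lower in the ELK3-labelled libraries than in controls (31.8% and 30.8% of all genes). In the vector-labelled libraries 2 were higher and 8 lower (37% and 35.3% of all genes). Between the plasmid groups 5 were higher and 6 lower (30% and 29.6% of all genes). VEGFA, the angiogenic growth factor, had 32.1 and 35.1 CPM in the ELK3-labelled libraries, 31.9 and 24.4 CPM in the vector-labelled libraries and 170.6 and 180.0 CPM in the controls. All plasmid libraries lay far below the controls, with log2 fold changes of -2.38 ± 0.11 (adjusted p = 1.86e-19) and -2.62 ± 0.11 (adjusted p = 4.86e-20). Between the plasmid groups VEGFA was not called (0.24 ± 0.13, adjusted p = 0.1), but it passed without vector-labelled replicate 1 (0.47, adjusted p = 0.0158) and with no filter (adjusted p = 0.0387). CA12, a membrane carbonic anhydrase, had 11.6 and 13.2 CPM, 5.29 and 4.40 CPM, and 38.1 and 37.8 CPM, lower by -1.60 ± 0.16 and -2.95 ± 0.20 and higher by 1.35 ± 0.22 in ELK3-labelled than in vector-labelled libraries (adjusted p = 4.02e-06). CA9 had 0 and 1 counts in the ELK3-labelled libraries, 0 and 0 in the vector-labelled ones, against 3 and 6 in the controls. With the vector-labelled group set at 3 counts, CA9 was 3.75-fold lower there than in controls. That value leaves out the counting error of the 9 control counts, so it is not a lower bound. The ratio of controls to ELK3-labelled libraries was 14.98 (95% counting interval 2.08 to 656.4).

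Some targets were lowest in the ELK3-labelled libraries. DDIT4, an inhibitor of mTORC1 signalling, had 34.0 and 34.7 CPM in the ELK3-labelled libraries, 61.0 and 55.4 CPM in the vector-labelled libraries and 140.5 and 129.0 CPM in the controls, with -0.76 ± 0.11 between the plasmid groups (adjusted p = 3.8e-07). P4HA1, a collagen prolyl hydroxylase subunit, had 52.6 and 57.2 CPM, 92.8 and 102.7 CPM, and 152.5 and 144.7 CPM, with -0.82 ± 0.10 between them (adjusted p = 1.11e-08). BNIP3, a mitophagy receptor, had 47.7 and 40.9 CPM, 68.0 and 65.4 CPM, and 110.0 and 93.8 CPM. ANKRD37, a HIF1A target with ankyrin repeats, had 5.72 and 5.32 CPM, 11.9 and 13.2 CPM, and 13.2 and 13.5 CPM, lower in the ELK3-labelled libraries by -1.28 ± 0.23 against controls (adjusted p = 1.29e-05) and -1.18 ± 0.23 against vector-labelled libraries (adjusted p = 3.29e-05).

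Others were lowest in the vector-labelled libraries. NDRG1, a stress-response gene, had 107.0 and 118.3 CPM in the ELK3-labelled libraries, 62.1 and 53.6 CPM in the vector-labelled libraries and 146.4 and 147.5 CPM in the controls, with 0.96 ± 0.10 between the plasmid groups (adjusted p = 5.48e-10). P4HA2, the sister of P4HA1, had 24.3 and 25.3 CPM, 14.2 and 9.40 CPM, and 38.1 and 36.6 CPM, with 1.04 ± 0.17 between them (adjusted p = 4.42e-06). P4HA1 and P4HA2 thus moved in opposite directions between the plasmid groups, and P4HA2 held 31.6% and 30.7% of their counts in the ELK3-labelled libraries, 13.3% and 8.39% in the vector-labelled libraries, against 20.0% and 20.2% in the controls. ADM, the vasodilator adrenomedullin, had 30.7 and 35.5 CPM, 20.1 and 18.6 CPM, and 45.2 and 64.5 CPM, with 0.78 ± 0.16 between the plasmid groups (adjusted p = 7.03e-05).

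A few targets were higher than in controls. MXI1, an antagonist of MYC, had 96.05 and 94.6 CPM in the ELK3-labelled libraries, 131.8 and 144.1 CPM in the vector-labelled libraries and 36.0 and 41.5 CPM in the controls. It was higher by 1.30 ± 0.11 (adjusted p = 2.27e-12) and 1.83 ± 0.11 (adjusted p = 1.59e-16). BNIP3L, the relative of BNIP3, had 89.5 and 76.7 CPM, 132.5 and 123.5 CPM, and 74.7 and 80.6 CPM, higher in vector-labelled libraries (0.72 ± 0.10, adjusted p = 1.09e-07). EGLN3, a HIF hydroxylase that HIF itself induces, was low, at 4.61 and 4.25 CPM, 1.18 and 3.002 CPM, and 1.88 and 2.15 CPM. Its call in ELK3-labelled libraries against controls (1.12 ± 0.43, adjusted p = 0.0227) ended without each control replicate (adjusted p = 0.102 and 0.0565), without each ELK3-labelled replicate (adjusted p = 0.0743 and 0.0653) and with DESeq2 (adjusted p = 0.125). Its call against vector-labelled libraries (1.15 ± 0.41, adjusted p = 0.0152) was lost on leaving out replicate 1 of the vector-labelled group (adjusted p = 0.339), without each ELK3-labelled replicate (adjusted p = 0.0586 and 0.0529) and with DESeq2 (adjusted p = 0.126). KDM3A, a histone demethylase, had mean levels of 52.9 ± 0.45, 57.1 ± 3.52 and 59.3 ± 0.42 CPM (SD, n = 2) and was called in no contrast.

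Further HIF targets outside the members were mixed, and their counts stand beside the same shares of all genes as above. Of 31 tested, 9 were higher and 16 lower in the ELK3-labelled libraries than in controls, 8 were higher and 16 lower in the vector-labelled libraries, and 11 were higher and 7 lower between the plasmid groups. The collagen cross-linking gene LOXL2 (-2.52 ± 0.11 and -2.69 ± 0.12), the transferrin receptor gene TFRC (-2.42 ± 0.09 and -2.68 ± 0.09) and the oxidoreductase gene ERO1A (-1.04 ± 0.10 and -1.68 ± 0.11) were lower in the ELK3-labelled and vector-labelled libraries than in controls, and the creatine transporter gene SLC6A8 was higher (3.13 ± 0.19 and 2.58 ± 0.20).

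Other isoforms of glycolytic genes and their relatives changed in both directions, and 30% and 29.6% of all genes were called higher and lower between the plasmid groups. Of 24 tested, 6 were higher and 10 lower in the ELK3-labelled libraries than in controls (31.8% and 30.8% of all genes). In the vector-labelled libraries 9 were higher and 6 lower (37% and 35.3% of all genes), and 3 were higher and 12 lower between the plasmid groups. HKDC1, a hexokinase relative, had 1.27 and 1.38 CPM in the ELK3-labelled libraries, 26.6 and 23.6 CPM in the vector-labelled libraries and 39.9 and 48.0 CPM in the controls, with -4.22 ± 0.25 between the plasmid groups (adjusted p = 9.45e-16). PGAM2, the muscle phosphoglycerate mutase, had 0.795 and 0.425 CPM, 15.3 and 16.8 CPM, and 0.418 and 1.29 CPM. The glucose transporter gene SLC2A12 had 15.1 and 11.9 CPM, 47.9 and 46.0 CPM, and 7.53 and 12.3 CPM. GPD2, the mitochondrial enzyme of the glycerol phosphate shuttle, was lower in both plasmid groups (-1.05 ± 0.13 and -2.09 ± 0.15).

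The branches that leave glycolysis were read against the shares of all genes called, 31.8% higher and 30.8% lower in the ELK3-labelled libraries and 37% and 35.3% in the vector-labelled libraries. Of 7 pentose phosphate genes 2 were higher and 3 lower in the ELK3-labelled libraries than in controls, and 2 were higher and 5 lower in the vector-labelled libraries. The oxidative enzyme gene PGD had 97.6 and 89.3 CPM in the ELK3-labelled libraries, 122.8 and 123.7 CPM in the vector-labelled libraries and 60.0 and 67.5 CPM in the controls, and the transketolase gene TKT had 87.1 and 95.9 CPM, 111.8 and 118.5 CPM, and 187.8 and 174.0 CPM. Of 13 genes of pyruvate entry and pyruvate dehydrogenase, 2 were higher and 4 lower in the ELK3-labelled libraries, and 5 were higher and 2 lower in the vector-labelled libraries. PDP1, the phosphatase that reverses the PDK kinases, was lower in both (-1.69 ± 0.15 and -1.60 ± 0.15), and PDHX, a structural subunit of the complex, had 31.8 and 41.5 CPM, 81.7 and 79.0 CPM, and 26.8 and 35.7 CPM. Of 6 gluconeogenic genes, 1 was higher and 2 lower in the ELK3-labelled libraries and 1 was higher and 1 lower in the vector-labelled libraries, with FBP1, fructose bisphosphatase, lower in both (-1.82 ± 0.18 and -1.08 ± 0.17). The other lower call in the ELK3-labelled libraries was PCK1, the liver and kidney phosphoenolpyruvate carboxykinase, at a mean of 309.1 CPM in ELK3-labelled libraries and 379.9 CPM in controls (-0.30 ± 0.08, adjusted p = 0.00223). All 10 liver markers were lower in that contrast, with a median of -0.28, and their part in the PCK1 value was not tested.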

How the data were processed

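RNA was sequenced from 6 libraries in 3 groups of 2. Per the submitters' processing notes, Bowtie2, edgeR and the hg19 genome were used, with no versions or roles; the counting tool, annotation, strand setting and filters are not given in the sources used here. The files hold raw counts per symbol, as the authors deposited them, unscaled. The 25737 lines of each file hold 24462 symbols, and lines of the 286 repeated symbols were summed. The members and all lists were chosen with earlier results of these data known.

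Testing used edgeR 4.0.16 under R 4.3.3, and limma 3.58.1 and DESeq2 1.42.0 served as alternatives. After filterByExpr (15386 genes) and TMM scaling, edgeR's quasi-likelihood test was run on 1 fit of the 3 groups over the 6 libraries, which left 3 residual degrees of freedom. The fit drew the spread of each gene towards a trend over all genes. P-values and SEs thus do not rest on the replicates of that gene alone. P-values were two-sided and Benjamini-Hochberg adjusted over all genes, with a threshold of 0.05. The SE is the log2 fold change over the square root of its F statistic. An exact permutation test of 2 against 2 libraries cannot go below 0.333. Counting intervals (exact, 95%) and the limit of 3 counts cover counting error only; the labels mention no molecular identifiers. The test was tried on simulated counts before use. Replicates differed beyond counting noise (chi-square over its degrees of freedom, 2.21 to 3.02), so none were merged. Levels were compared between groups, and the genes of a family were set beside each other as shares of their summed counts. These families hold members alone, so relatives such as HKDC1 and SLC16A7 are left out. Full values were given for the members with the 5 highest and 5 lowest called changes at 10 CPM or more and for members of paralog families, and up to 5 genes by smallest p per other list were named.

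Alternatives were DESeq2 size factors, library totals, DESeq2, limma-voom, no filter, 10 CPM in 2 libraries, only the 4 libraries compared, a replicate block, repeated symbols left out, and each library left out. Promoters and plots were handled with matplotlib 3.10.9, numpy 2.4.6 and pandas 2.3.3 (Python 3.11.15).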

Additional observations from a re-analysis of the deposited data

How the results depend on the processing

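Counts of members called stayed within 1.5 times of those reported under all 15 alternatives run. Leaving out each library in turn gave 6 to 8 higher and 24 to 26 lower members in the ELK3-labelled libraries against controls, 6 to 8 and 24 to 26 in the vector-labelled libraries, and 14 to 18 and 9 to 12 between the plasmid groups. The other alternatives gave 7 to 11 and 24 to 26, 6 to 9 and 24 to 27, and 14 to 19 and 10 to 12. Of the 120 changes of single members, 22 gained or lost a call under some alternative, and no change called under either setting reversed its sign. In 28 cases over 11 uncalled changes the sign differed. DESeq2 size factors, the 4 libraries compared and leaving out repeated symbols changed no call. Replicates with the same number did not deviate together (correlation -0.0556 to 0.0332 between groups), so the numbers were not read as pairs. The replicate block gave 8 and 26, 7 and 26, and 18 and 11 members, and the call it ended was that of GAPDH between the plasmid groups (-0.20, adjusted p = 0.0559). Calls between the plasmid groups also ended for GAPDH with library totals (adjusted p = 0.061), DESeq2 (adjusted p = 0.0589) and no filter (adjusted p = 0.181), for GPI with no filter (adjusted p = 0.0725), and for PGAM1 and ALDOC with DESeq2 (adjusted p = 0.0669 and 0.19) and the 10 CPM filter (adjusted p = 0.0802 and 0.0608). The ALDOA call in ELK3-labelled libraries ended with DESeq2 (adjusted p = 0.0606), no filter (adjusted p = 0.0544) and the 10 CPM filter (adjusted p = 0.064), and that in vector-labelled libraries with the 10 CPM filter (adjusted p = 0.185). With library totals PGK1 and BNIP3L were higher in ELK3-labelled libraries than in controls (adjusted p = 0.0397 and 0.0351). Where a call ended without a library the cause was not tested. Shares of a family rest on counts within a library and do not depend on scaling. CA9, with 1 count in the ELK3-labelled, 0 in the vector-labelled and 9 in the control libraries, did not pass the filter on low counts.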

Other observations

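Among the 24 tested isoforms and relatives of the glycolytic genes outside the members, 3 were called in opposite directions against the shared controls. The share of all genes called in this way was not counted, so the 3 are not read as a trait of these genes. LDHD, a D-lactate dehydrogenase, averaged 0.0532 CPM in the ELK3-labelled libraries, 4.12 CPM in the vector-labelled libraries and 1.06 CPM in the controls. ADPGK, an ADP-dependent glucokinase, averaged 36.7, 72.8 and 59.9 CPM in the same groups, and was lower in the ELK3-labelled (-0.71 ± 0.11, adjusted p = 1.5e-06) and higher in the vector-labelled libraries (0.28 ± 0.11, adjusted p = 0.0198). PGAM5, a mitochondrial phosphatase related to the mutases, averaged 56.1, 23.5 and 43.7 CPM, higher in the ELK3-labelled (0.36 ± 0.12, adjusted p = 0.00871) and lower in the vector-labelled libraries (-0.89 ± 0.14, adjusted p = 5.53e-07).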
